A study of Mus with 6 samples.

Results

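Projection neurons of the basolateral amygdala are the glutamatergic output cells of a brain region central to fear memory. The 10 genes described here, Rspo2, Etv1, Cdh13, Cdh9, Lypd1, Thrsp, Lmo3, Lmo4, Nptx1 and Dkk3, have been used to mark such neurons or subsets of them. They were taken by gene symbol, and each of the 10 matched 1 of the 54532 genes in the table. The libraries came from mice labelled CNTNAP4-KO (KO, n = 3) and mice labelled wild type (WT, n = 3), all labelled male and all from tissue labelled basolateral amygdala. Cntnap4 encodes a cell adhesion protein of neurons related to the neurexins, and the comparison asks which transcripts differ with its loss. The series title also names the bacterium Lactobacillus reuteri, and no sample labelled as treated was analysed here. The labels state no age, no strain, no part of Cntnap4 that was removed and no pooling of animals.

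Basolateral amygdala projection neurons arise from the pallium, like cortical pyramidal neurons, and share with them the vesicular glutamate transporter gene Slc17a7 and the Neurod transcription factors. In mice, Rspo2 marks the larger neurons of the anterior part of the nucleus, whereas Ppp1r1b marks neurons of its posterior part and is also abundant in striatal neurons. The other 9 genes are expressed in further forebrain cell types as well, so none of them identifies the nucleus alone.

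Libraries held 17647556 to 20813211 reads in genes. Cntnap4 measured 1.61, 1.00 and 1.48 FPKM (fragments counted on the gene, divided by its length in kilobases and by the size of the library) in KO replicates 1 to 3, against 2.03, 3.59 and 4.91 FPKM in WT replicates 1 to 3, and its difference did not pass (limma adjusted p = 0.220). The library labelled KO replicate 1 went against its label of male, since it held the female transcript Xist at 43.0 FPKM and 0 reads on 4 Y-linked genes. KO replicate 2 stood apart in markers of neighbouring regions, with the hypothalamic hormone genes Avp at 2.20 FPKM and Oxt at 0.103 FPKM, against 325 to 894 and 12.5 to 168 FPKM in the other KO libraries and 350 to 783 and 133 to 209 FPKM in WT. Rspo2 and Slc17a7, used here as markers of the labelled tissue, were present and low. In WT libraries Rspo2 averaged 0.438 ± 0.0751 FPKM and Slc17a7 5.83 ± 0.535 FPKM, whereas the striatal and central amygdala peptide gene Penk averaged 383 ± 64.3 FPKM (SD, n = 3). The differences of the 10 genes are therefore also given without KO replicate 1 and without KO replicate 2. In tissue pieces, fewer cells of a type and less RNA per cell cannot be told apart.

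Of the 10 marker genes, 6 had all KO values above all WT values. These were Nptx1, Rspo2, Dkk3, Lmo4, Lmo3 and Cdh13, at 1.22 to 2.20 times the WT mean. Etv1 had all KO values below all WT values, at 0.819 times the WT mean. The values of Cdh9, Lypd1 and Thrsp overlapped between the groups. Over all 16155 genes tested, KO values lay entirely above WT for 11.8% and entirely below for 10.8%. That balance depended on scaling, with 6.07% above and 13.9% below after rescaling to an equal FPKM sum, and 8.42% and 14.4% in voom on recovered reads, while the numbers for the 10 genes stayed at 6 and 1 in both. The median log2 difference, KO minus WT, was 0.40 over the 10 genes and 0.01 over all genes tested. None of the 10 genes passed the limma test after Benjamini-Hochberg adjustment over all genes, with adjusted p from 0.200 to 0.737, where 0.0124% of all genes passed. At an unadjusted p under 0.05, limma took 6 of the 10 genes higher and 1 lower, against 8.36% and 6.85% of all genes tested. Voom took the same numbers of the 10 genes, with 0 adjusted calls, against 6.18% and 10.2% of all genes. Over all alternatives limma took 5 to 7 higher and 0 or 1 lower, against 2.04% to 11.8% and 2.16% to 10.2% of all genes. The number lower was 0 with no filter, with the replicate block, and without KO replicate 2, WT replicate 1 or WT replicate 2. All 10 genes passed the filter of a mean of 0.5 FPKM, Rspo2 only through its KO values.

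**Figure D1:**
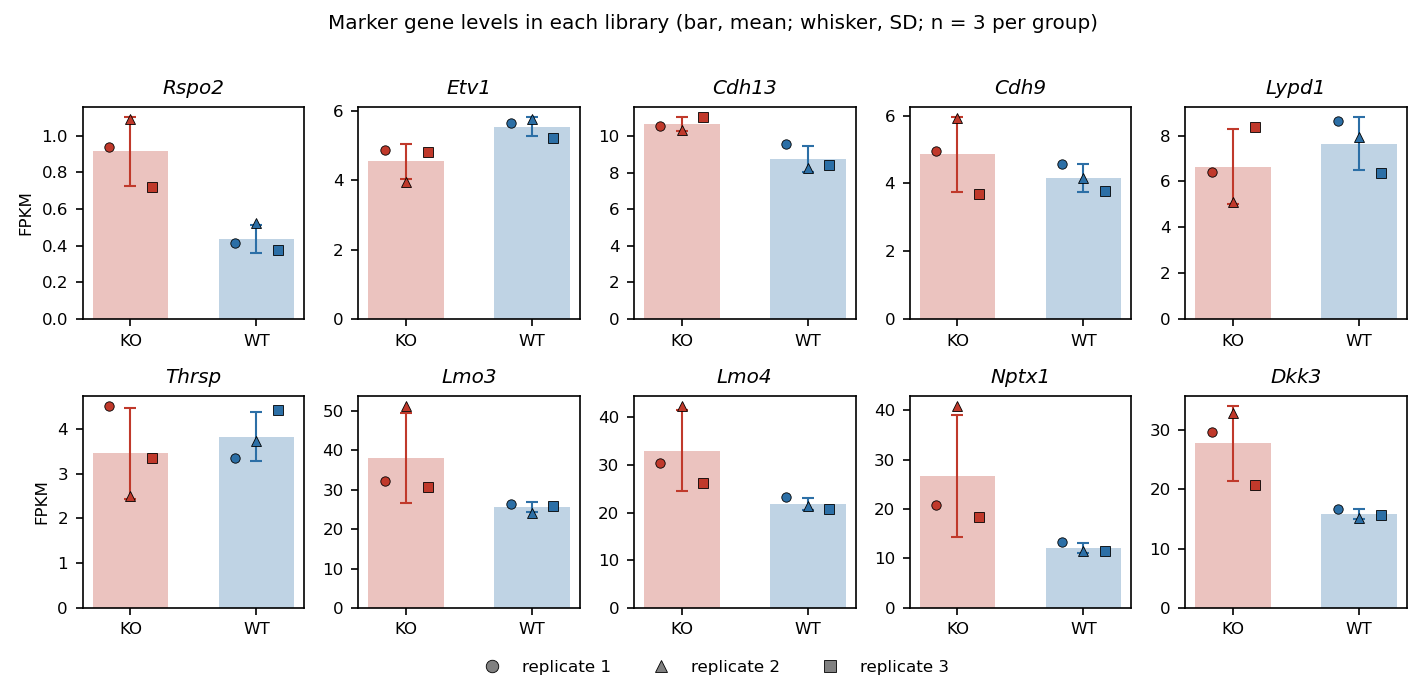
FPKM of the 10 marker genes in each library, with KO on the left and WT on the right of every panel; bars are group means, whiskers SD (n = 3 each), and marker shapes give the replicate number. KO values lie wholly above WT for Rspo2, Cdh13, Lmo3, Lmo4, Nptx1 and Dkk3, wholly below for Etv1, and overlap for Cdh9, Lypd1 and Thrsp.

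Rspo2 encodes a secreted R-spondin, which strengthens Wnt signalling by binding Lgr receptors and the ubiquitin ligases Znrf3 and Rnf43. It lies on chromosome 15 (43020794 to 43170826, minus strand, GRCm38; ENSMUSG00000051920). Rspo2 measured 0.936, 1.09 and 0.718 FPKM in KO replicates 1 to 3, against 0.414, 0.522 and 0.378 FPKM in WT replicates 1 to 3. All KO values lay above all WT values, and KO replicate 2 was highest. The means were 0.915 ± 0.188 FPKM in KO and 0.438 ± 0.0751 FPKM in WT (SD, n = 3 each), a ratio of 2.09. The log2 difference was 0.59 ± 0.17 (SE; limma adjusted p = 0.229), on a log2(FPKM + 0.5) scale that understates the change of a gene this low. The values rest on 90, 101 and 65 reads in KO and 39, 48 and 42 reads in WT. The 95% Poisson interval of the lowest KO library, KO replicate 3 (0.554 to 0.915 FPKM), overlaps that of the highest WT library, WT replicate 2 (0.385 to 0.692 FPKM). Rspo2 ranked 15157 of all genes by mean level, the lowest of the 10.

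Dkk3 encodes a secreted glycoprotein, a divergent member of the dickkopf family of Wnt regulators. The gene is on chromosome 7 (112116017 to 112159057, minus strand; ENSMUSG00000030772). Its level was 29.6, 32.9 and 20.7 FPKM in KO replicates 1 to 3, against 16.7, 15.1 and 15.7 FPKM in WT replicates 1 to 3. The WT libraries sat close together, and KO replicate 3 was the KO library nearest to them. Means were 27.7 ± 6.33 FPKM in KO and 15.8 ± 0.788 FPKM in WT, and the log2 difference was 0.77 ± 0.16 (limma adjusted p = 0.200), the smallest adjusted p among the 10. Without KO replicate 2 the log2 difference was 0.63.

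Nptx1 encodes neuronal pentraxin 1, a secreted protein that helps cluster AMPA-type glutamate receptors at excitatory synapses. It is on chromosome 11 (119538719 to 119547753, minus strand; ENSMUSG00000025582). Nptx1 measured 20.8, 40.9 and 18.3 FPKM in KO replicates 1 to 3, against 13.3, 11.5 and 11.5 FPKM in WT replicates 1 to 3. KO replicate 2 held about as much as the other KO libraries together. The mean was 26.7 ± 12.4 FPKM in KO and 12.1 ± 1.04 FPKM in WT, and the log2 difference of 1.02 ± 0.28 (limma adjusted p = 0.224) was the largest of the 10 on this scale. In voom, which adds no FPKM pseudocount, Nptx1 was at 1.00 and Rspo2 at 1.01. Without KO replicate 2 the log2(FPKM + 0.5) difference of Nptx1 was 0.67, and both remaining KO libraries still lay above all WT libraries.

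The other pentraxin genes of the family list pointed the same way. Nptx2, which encodes an activity-regulated pentraxin, measured 7.99, 9.26 and 7.77 FPKM in KO and 4.74, 4.93 and 6.53 FPKM in WT. Nptxr, which encodes the membrane-anchored pentraxin that assembles with both, measured 39.4, 78.1 and 37.3 FPKM in KO and 27.1, 24.7 and 27.9 FPKM in WT. Neither passed (log2 0.59 and 0.86, limma adjusted p = 0.200 and 0.252), and as for Nptx1, KO replicate 2 was the highest library for both.

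Cdh13 encodes T-cadherin, a cadherin held in the membrane by a lipid anchor instead of a transmembrane segment. The level was 10.6, 10.4 and 11.1 FPKM in KO replicates 1 to 3, against 9.55, 8.26 and 8.44 FPKM in WT replicates 1 to 3. The gap between the groups was small, and KO libraries agreed more closely with each other than for any other of the 10 genes. The means were 10.7 ± 0.360 FPKM in KO and 8.75 ± 0.702 FPKM in WT, with a log2 difference of 0.27 ± 0.08 (limma adjusted p = 0.230). It was also the only one of the 10 in which KO replicate 2 was neither the highest nor the lowest library. Cdh13 (chromosome 8, 118283733 to 119324921, plus strand; ENSMUSG00000031841) starts 5.40 Mb beyond the end of Cntnap4 on the same chromosome. The labels do not give the strain of the flanking DNA in KO mice, and its part in the difference was not tested. Within 10 Mb of Cntnap4, 23.6% of 208 tested genes did not overlap between the groups, against 22.6% of all genes tested.

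Cdh9, a classical type II cadherin gene with a role in hippocampal synapse formation in mice, lies on chromosome 15 (16728756 to 16857094, plus strand; ENSMUSG00000025370). Its level was 4.94, 5.92 and 3.70 FPKM in KO replicates 1 to 3, against 4.58, 4.15 and 3.77 FPKM in WT replicates 1 to 3. KO replicate 2 was the highest of the 6 libraries and KO replicate 3 the lowest. The log2 difference was 0.18 (95% limma interval -0.20 to 0.56), and 0.04 without KO replicate 2.

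Lypd1 encodes a lipid-anchored protein of the Ly6 family that modulates nicotinic acetylcholine receptors. It is on chromosome 1 (125867622 to 125913101, minus strand; ENSMUSG00000026344). Lypd1 measured 6.41, 5.12 and 8.37 FPKM in KO replicates 1 to 3, against 8.64, 7.95 and 6.37 FPKM in WT replicates 1 to 3. The ranges overlapped, and KO replicate 2 was the lowest library. The log2 difference was -0.21, with a 95% interval of -0.64 to 0.23, and it was -0.05 without KO replicate 2.

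Lmo3 and Lmo4 encode LIM-only proteins, transcriptional cofactors that bind the adaptor Ldb1 and have no DNA-binding domain of their own. Lmo3 (chromosome 6, 138362918 to 138581968, minus strand; ENSMUSG00000030226) measured 32.3, 51.4 and 30.7 FPKM in KO replicates 1 to 3, against 26.5, 24.2 and 26.0 FPKM in WT replicates 1 to 3. Lmo4 (chromosome 3, 144188530 to 144205220, minus strand; ENSMUSG00000028266) measured 30.4, 42.5 and 26.1 FPKM in KO replicates 1 to 3, against 23.2, 21.5 and 20.8 FPKM in WT replicates 1 to 3. For both genes KO replicate 2 stood well above the other KO libraries, which lay nearer to WT. Lmo3 averaged 38.1 ± 11.5 FPKM in KO and 25.6 ± 1.23 FPKM in WT, with a log2 difference of 0.53 ± 0.19 (limma adjusted p = 0.283). Lmo4 averaged 33.0 ± 8.48 FPKM in KO and 21.8 ± 1.26 FPKM in WT, with a log2 difference of 0.56 ± 0.17 (limma adjusted p = 0.240). Without KO replicate 2 the log2 differences were 0.29 for Lmo3 and 0.36 for Lmo4, and neither gene's groups overlapped. Lmo3 measured above Lmo4 within all 6 libraries, at 1.06 to 1.21 times its level in KO and 1.13 to 1.25 times in WT.

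Relatives and partners of the LIM-only genes did not share one direction. Lmo1 measured 5.04, 5.13 and 3.85 FPKM in KO and 5.48, 5.59 and 7.71 FPKM in WT (log2 -0.38, limma adjusted p = 0.321), lower in every KO library. Ldb1, the adaptor gene, measured 31.8, 30.2 and 29.8 FPKM in KO and 28.0, 26.4 and 22.8 FPKM in WT (log2 0.25, limma adjusted p = 0.285). Lmo2 had a log2 difference of 0.15 and did not overlap between the groups, but it did overlap after rescaling to an equal FPKM sum and in voom.

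Etv1 encodes an ETS-family transcription factor that also marks layer 5 cortical neurons. Among the 10 genes, Etv1 alone had every KO value below every WT value. Etv1 (chromosome 12, 38779380 to 38870484, plus strand; ENSMUSG00000004151) measured 4.86, 3.95 and 4.80 FPKM in KO replicates 1 to 3, against 5.63, 5.76 and 5.22 FPKM in WT replicates 1 to 3. KO replicate 2 was again the extreme library, here the lowest. The means were 4.54 ± 0.507 FPKM in KO and 5.54 ± 0.281 FPKM in WT, and the log2 difference of -0.27 ± 0.10 did not pass (limma adjusted p = 0.288). Of its closest relatives, Etv4 was lower in every KO library (log2 -0.30, limma adjusted p = 0.340) and Etv5 higher (log2 0.40, limma adjusted p = 0.187), with 16.7, 16.2 and 16.7 FPKM in KO and 13.2, 11.6 and 12.5 FPKM in WT.

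Thrsp encodes a thyroid hormone-responsive nuclear protein known for regulating fat synthesis in liver. It is on chromosome 7 (97412938 to 97417730, minus strand; ENSMUSG00000035686). Its level was 4.52, 2.50 and 3.35 FPKM in KO replicates 1 to 3, against 3.34, 3.73 and 4.41 FPKM in WT replicates 1 to 3. KO libraries held both the highest and the lowest value. The log2 difference was -0.15 (95% interval -0.61 to 0.31), and without KO replicate 2 it was 0.029, so its direction rests on that library. Mid1ip1, which encodes the relative that pairs with this protein, measured 40.4, 38.4 and 46.9 FPKM in KO and 40.2, 45.9 and 39.1 FPKM in WT.

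**Figure D2:**
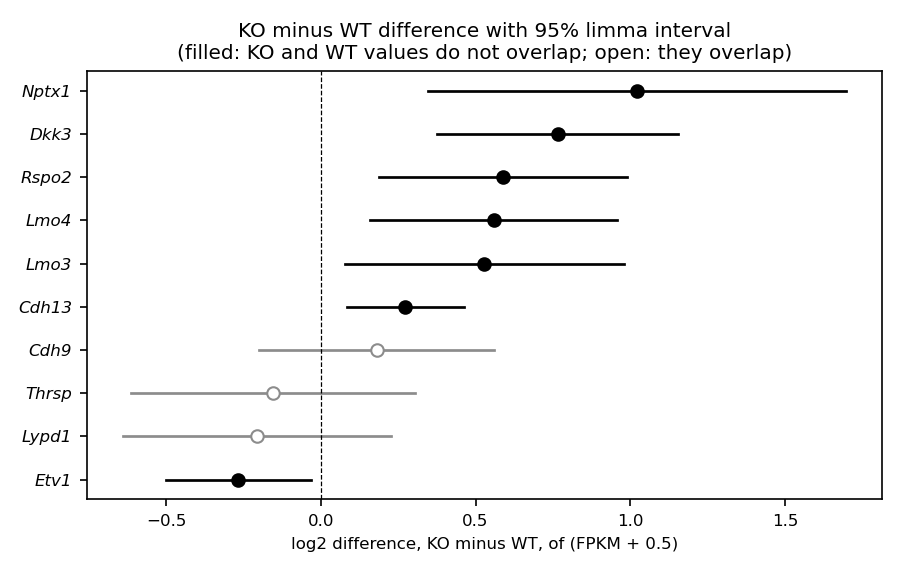
Log2 difference, KO minus WT, of each of the 10 marker genes (points) with its 95% limma interval (lines); filled points are genes whose KO and WT values do not overlap. The intervals of Cdh9, Thrsp and Lypd1 include 0, and the estimates run from -0.27 for Etv1 to 1.02 for Nptx1.

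The list of relatives and binding partners held 30 genes, of which 26 passed the filter. None of the 26 was called, and their median log2 difference was 0.01. Of them, 6 lay higher in every KO library and 4 lower, against 11.8% and 10.8% of all genes tested. Besides the pentraxin, LIM-only and ETS genes above, Kremen1, a dickkopf receptor gene, lay higher (4.23, 4.82 and 3.25 FPKM in KO, 3.12, 2.88 and 2.82 FPKM in WT). The type II cadherin genes Cdh8 and Cdh10 lay lower (log2 -0.22 and -0.18, limma adjusted p = 0.294 and 0.401), and Cdh10 overlapped after rescaling to an equal FPKM sum. The R-spondin receptor and ligase genes overlapped between the groups. Lgr4 averaged 4.83 FPKM in KO and 4.80 FPKM in WT, Znrf3 2.32 and 2.10 FPKM, and Rnf43 0.785 and 0.800 FPKM. The dickkopf ligand genes Dkk1, Dkk2 and Dkk4 were below the filter, and Dkk1 had 0 reads in every library.

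In WT libraries the order of levels, which FPKM allows because it is per gene length, ran Lmo3, Lmo4, Dkk3, Nptx1, Cdh13, Lypd1, Etv1, Cdh9, Thrsp and Rspo2. Neighbours in that order were separated in every case except Cdh13 with Lypd1 and Cdh9 with Thrsp, whose ranges overlapped. In KO libraries the first 5 kept these places, and Lypd1 was followed by Cdh9, Etv1, Thrsp and Rspo2. There the neighbouring ranges among Lmo3, Lmo4, Dkk3 and Nptx1 overlapped, as did those among Lypd1, Cdh9, Etv1 and Thrsp. The spread was wider in KO, with an SD on the log2 scale larger in KO than in WT for 9 of the 10 genes, against 57.5% of all genes tested. The median SD of the 10 genes was 0.34 in KO and 0.11 in WT, and over all genes tested it was 0.14 in KO and 0.12 in WT.

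KO replicate 2 was the highest library for 6 of the 10 genes and the lowest for 3, an extreme for 9 in all, where it was the highest or lowest library for 46.2% of all genes tested. Relative to the WT mean, Nptx1 stood at log2 1.72 in KO replicate 2, against 0.76 and 0.58 in KO replicates 1 and 3. Dkk3 and Rspo2 differed less among KO libraries, at 0.88, 1.03 and 0.38 for Dkk3 and 0.62, 0.77 and 0.38 for Rspo2 in KO replicates 1 to 3. Without KO replicate 2 the median over the 10 genes was 0.29, and 6 genes lay higher and 1 lower in both remaining KO libraries, where 17.2% and 16.2% of all genes did. Besides the values given above, the log2 differences were then 0.50 for Rspo2, 0.29 for Cdh13 and -0.18 for Etv1. Without KO replicate 1 the median was 0.43 with the same numbers, 6 and 1, against 17.3% and 15.9% of all genes. The log2 differences were then 1.15 for Nptx1, 0.71 for Dkk3, 0.63 for Lmo3, 0.60 for Lmo4, 0.57 for Rspo2, 0.28 for Cdh13 and 0.16 for Cdh9. Those below 0 were -0.34 for Thrsp, -0.31 for Etv1 and -0.20 for Lypd1. Thrsp was the only one of the 10 that this moved by more than 1.5 times.

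**Figure D3:**
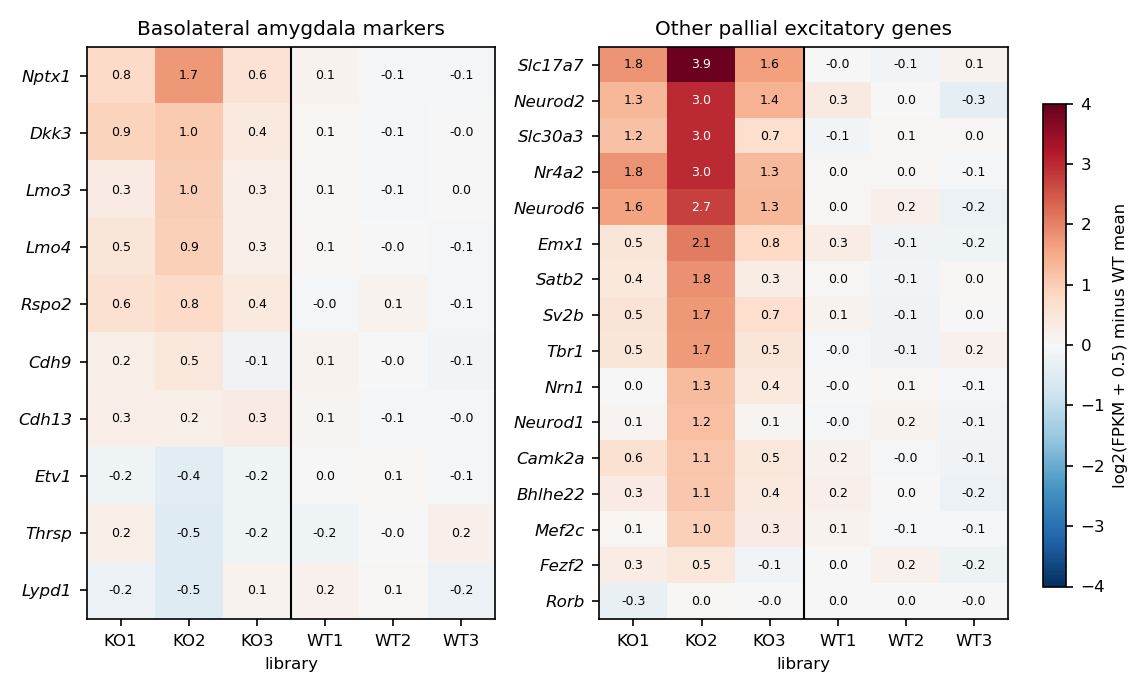
Log2(FPKM + 0.5) minus the WT mean in each library (columns, KO left of the line and WT right) for the 10 marker genes and for 16 other genes of pallial excitatory neurons, each ordered by its value in KO replicate 2. The deepest colour of the right panel is Slc17a7 in KO replicate 2, and the marker genes reach at most 1.72 there, for Nptx1.

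Other genes of pallial excitatory neurons also had mostly positive differences. Of 16 such genes, all tested, 11 were higher in every KO library and 0 lower, against 11.8% and 10.8% of all genes tested. None was called, and the median log2 difference was 0.87. In voom 11 were higher and 1, Rorb, was lower, against 8.42% and 14.4% of all genes. Slc17a7 measured 21.4, 94.3 and 19.1 FPKM in KO replicates 1 to 3, against 5.69, 5.37 and 6.42 FPKM in WT replicates 1 to 3. Its log2 difference of 2.45 did not pass (limma adjusted p = 0.205), but without KO replicate 2 it was 1.71 and passed (limma adjusted p = 0.0217). It was the only gene called there, of 16187 tested, and it passed under none of the other alternatives. Without KO replicate 1 its limma adjusted p was 0.251, and without KO replicate 3 it was 0.208. The transcription factor genes Neurod2, Neurod6, Tbr1, Emx1, Bhlhe22 and Nr4a2 had log2 differences of 1.90, 1.89, 0.88, 1.11, 0.61 and 2.02. The synaptic genes Slc30a3, Sv2b and Camk2a, for vesicular zinc transport, a vesicle protein and a calcium-dependent kinase, had 1.61, 0.98 and 0.73. Neurod1, Mef2c, Nrn1, Fezf2 and Rorb of the same list overlapped between the groups, with log2 differences of 0.48, 0.45, 0.56, 0.22 and -0.09. Without KO replicate 2 the list kept 13 genes over the filter, and its median was 0.54. Of these, 9 were higher in both remaining KO libraries, against 17.2% of all genes.

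Markers of other regions and cell types also differed between the pieces, and their part in the values of the 10 genes was not tested. Of 10 striatal neuron markers, 5 (Drd2, Adora2a, Penk, Tac1 and Ppp1r1b) were higher in every KO library and 0 lower, against 11.8% and 10.8% of all genes, and the list's summed level was 1181 to 1677 FPKM in KO and 825 to 1105 FPKM in WT. That number was 10 without KO replicate 3 or without WT replicate 1 (17.2% of all genes in either case), 5 without KO replicate 1 or 2, 2 after rescaling to an equal FPKM sum and 3 with quantile normalization, and the median log2 difference of 0.53 was 0.32 without KO replicate 2. Ppp1r1b measured 426, 462 and 306 FPKM in KO and 275, 214 and 254 FPKM in WT. Of 8 oligodendrocyte markers, 6 were lower in every KO library, against 10.8% of all genes, and 0 higher, with sums of 892 to 1334 FPKM in KO and 1458 to 1935 FPKM in WT. The myelin gene Mbp overlapped, at 513, 316 and 480 FPKM in KO and 430, 575 and 428 FPKM in WT. The number of oligodendrocyte markers lower in every KO library stayed at 6 without KO replicate 1 or 2, and the median of -0.64 was -0.48 without KO replicate 2. Hypothalamic markers summed to 1090, 6.32 and 349 FPKM in KO replicates 1 to 3, against 505 to 964 FPKM in WT. All 7 tested genes of that list overlapped between the groups, and in KO replicate 2 Sim1 was at 0. Thalamic markers summed to 14.8 to 25.0 FPKM in KO and 24.7 to 26.0 FPKM in WT, and central amygdala markers to 30.5 to 56.2 FPKM in KO and 49.8 to 55.9 FPKM in WT. KO replicate 2 was the lowest library for both sums. Of the 6 thalamic genes Tcf7l2 was lower in every KO library, and of the 6 central amygdala genes Crh was, and none of either list was higher. The central amygdala gene Prkcd measured 4.75, 2.57 and 3.65 FPKM in KO and 3.72, 3.70 and 4.12 FPKM in WT. Sums of GABAergic interneuron markers (651 to 766 FPKM in KO, 606 to 726 FPKM in WT) and astrocyte markers (333 to 370 FPKM in KO, 325 to 346 FPKM in WT) overlapped. Among these interneuron markers Vip was higher and Gad2 and Lhx6 lower in every KO library, and no astrocyte marker was either. Smaller lists for claustrum and endopiriform nucleus (4 genes), hippocampus (4 tested of 5) and upper cortical layers (4 genes) had 2 genes (Nr4a2 and Gnb4), 1 gene (Wfs1) and 2 genes (Rasgrf2 and Lamp5) higher in every KO library and 0 lower. Nr4a2 was also counted in the pallial list. Since 11.8% of all genes were higher and 10.8% lower, counts of 1 or 2 genes in the thalamic, central amygdala, interneuron and smaller lists are no result about a list.

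**Figure D4:**
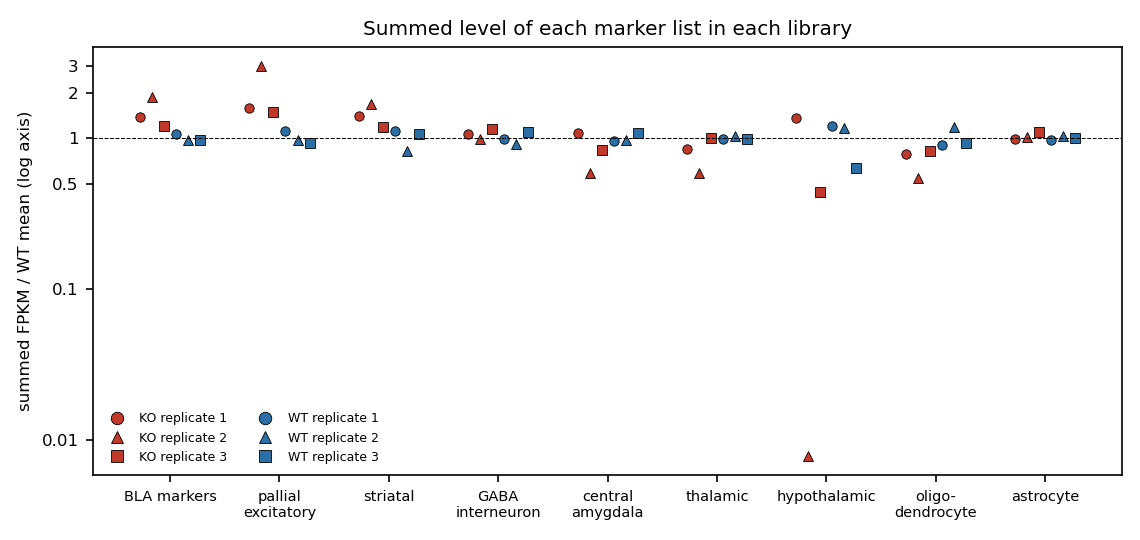
Summed FPKM of each marker list in each library, divided by the mean of the WT libraries (log axis); KO libraries are left of WT libraries in each column and shapes give the replicate number. KO replicate 2 is the highest library for the basolateral amygdala (BLA), pallial excitatory and striatal sums and the lowest for the central amygdala, thalamic, hypothalamic and oligodendrocyte sums.

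The genes whose profile over the 6 libraries was most like that of Rspo2 depended on the scale. Likeness was the root mean square difference of log2(FPKM + 0.5), centred on the WT mean, over all tested protein-coding genes. By this measure Ppp1r1a, Net1, Krt10, Hspa2 and Rab40b were nearest, from 0.079 for Ppp1r1a to 0.097 for Rab40b. With a pseudocount of 0.1, which shrinks low genes less, 0 of these 5 were among the nearest 5, and with a pseudocount of 1, 1 was. Among the other 9 marker genes Lmo4 was nearest at 0.134, but with a pseudocount of 0.1 Dkk3 was nearest, at 0.176 with Lmo4 at 0.283. Lypd1, Etv1 and Thrsp were the farthest of the 9 at pseudocounts of 0.1 and 0.5.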

How the data were processed

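RNA from tissue labelled basolateral amygdala was sequenced in 3 KO and 3 WT libraries; the labels' protocols name a SMARTer mRNA kit. Coordinates are on GRCm38 (mm10), per the submitters' processing notes. Aligner, counter, annotation release and strand use: not given in the sources used here. The authors deposited FPKM values per gene with gene lengths; 0 sample columns were unmatched. FPKM times length gave whole reads (within 0.01) for 100% of nonzero values. The 10 genes had 39 to 4773 reads per library, and Poisson intervals cover counting error only.

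KO and WT were compared by limma-trend, robust (limma 3.58.1, R 4.3.3), on log2(FPKM + 0.5), for 16155 genes averaging 0.5 FPKM or more, with Benjamini-Hochberg adjustment over all of them and a threshold of 0.05. It was tested on simulated data, where it made somewhat more false calls than its threshold allows. Differences are KO minus WT, with standard errors or 95% limma intervals. An exact two-sided permutation test of 3 against 3 values cannot go below 0.1, the value that each of the 7 genes without overlap reached. The labels do not say whether samples came from separate mice, so p-values reflect only how these 6 samples vary, which may be technical. Overlapping antisense or intronic genes held at most 1.59% as many reads as the member they overlap, for Lmo3.

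The 10 genes, the 12 other lists and the tests were chosen with earlier results of these data known. Named were all 10 genes; relatives, partners and up to 10 pallial genes whose groups do not overlap; Cntnap4; defining regional markers; and the 5 genes most like Rspo2. Further genes, among them Lgr4, Mid1ip1, Sim1, Xist, the pallial genes that overlap and single regional markers behind small counts, were named after their values were seen. Alternatives were pseudocounts of 0.1 and 1, no filter or 5 FPKM, 3 other scalings, plain empirical Bayes, array weights, the replicate block, protein-coding genes, voom and each library left out; list counts under them and the pseudocounts for likeness to Rspo2 were added after seeing the data.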

Additional observations from a re-analysis of the deposited data

How the results depend on the processing

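None of the 10 genes was called under any of the 18 alternatives (lowest adjusted p 0.0912). Of 177 log2 differences recomputed for them, 176 kept their direction; Thrsp turned to 0.029 without KO replicate 2 (range with 1 library left out, -0.34 to 0.029). Numbers of genes without overlap moved by at most 1.5 times, and their median stayed at 0.29 to 0.50 with 1 library left out. Over all genes, 2 were called, against 0 with a pseudocount of 0.1, a filter at 5 FPKM, protein-coding genes only or voom, 9 with no filter, 5 after rescaling to an equal FPKM sum, 1 with quantile normalization, and 0 to 9 with 1 library left out; the cause was not tested. The replicate block gave 0 calls. Deviations of same-numbered libraries from their group means correlated at -0.0899, -0.138 and -0.0661, and no KO library correlated best with its own number. This check found no pairing by number but cannot exclude one, since the deviations within each group of 3 libraries sum to 0. At 39 to 101 reads per library, depth limits Rspo2 most.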
